A study of Mus musculus with 6 samples.

Results

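Open chromatin away from the genes of the deposited count table was described at 6076 sites in fibroblasts of the mouse heart, the cells that make and repair its connective tissue. The sites were selected on measured values. They are peaks of the wild-type (WT) ATAC-seq list on chromosomes 1 to 19 that are under 3000 bases wide, have a fold enrichment of at least 10 over the library's background, overlap a peak of the Acta2 knockout (KO) list, and have their summit more than 5 kb outside every gene interval of the deposited count table. They made up 4.99% of the 121651 WT peaks on those chromosomes. The WT list holds 123935 peaks in all and the KO list 121748. Because fold enrichment and overlap chose the sites, both are given as descriptions without a test. Gene expression was not used to choose them.

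The series compares WT cells with cells that lack Acta2, which encodes α-smooth muscle actin, by ATAC-seq in 1 KO and 1 WT sample and by RNA-seq in 2 KO and 2 WT samples. Per the labels, fibroblasts of WT mice and of mice with floxed Acta2 (Acta2 fl/fl) were both transduced with adenoviral Cre and kept in TGF-β for 2 days, and 10000 cells went into each ATAC-seq library. The same labels also describe tamoxifen (for a MerCreMer recombinase, 75 mg per kg daily over 5 days, begun at 6 weeks of age), a second tamoxifen course around a ligation of the left coronary artery at 9 weeks of age, and sorting of eGFP-positive cells of the Tcf21 lineage. Which of these sources each library came from is not clear from them, and both genotypes carry the same protocol text. Nothing says that replicates came from separate animals or cultures, so the p-values rest on the spread between these libraries alone, which may be a technical spread.

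ATAC-seq maps DNA that a transposase can enter, and peaks far from genes often mark enhancers, stretches where transcription factors bind and act on genes at a distance. In fibroblasts many enhancers carry sites for AP-1, the dimer of Fos and Jun proteins that responds to growth factors and stretch, often beside sites for TEAD, the DNA-binding partner of YAP and TAZ. Intergenic DNA also holds most of the genome's interspersed repeats, whose many near-identical copies are hard to tell apart with sequencing reads. A nearest gene is only the closest one along the chromosome, and these data do not link a peak to the gene it acts on.

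The sites differed by sequence. At 4628 (76.2%) every 32-base word around the summit occurs once in the genome. At 840 (13.8%) at least 50% of the summit window was repeat-masked, and 254 of these had no related sequence among the members. Some sites fit neither description. The single-copy sites are shown by the one of highest WT fold, which lies nearest to Axin2. The member of highest WT fold among all 6076, nearest to Pdia4, is given beside it. Its window was not repeat-masked, and its median word occurs 16 times in the genome. The Axin2 site had a fold of 70.65 in WT and 59.93 in KO, and the Pdia4 site 458.8 and 289.9. Both are 100 bases of the plus strand of mm10 centred on the summit, and neither holds an AP-1 or TEAD letter match.

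Member nearest to Axin2, chr11:109011865-109011964: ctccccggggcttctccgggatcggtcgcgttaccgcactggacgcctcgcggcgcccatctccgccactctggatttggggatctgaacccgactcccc
Member nearest to Pdia4, chr6:47753893-47753992: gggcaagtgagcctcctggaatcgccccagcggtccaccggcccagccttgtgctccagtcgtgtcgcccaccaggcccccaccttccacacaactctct

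Repeat-masked sites are shown by 3 members of the largest group of related sequences, on 3 different chromosomes. Capitals mark 1 shared word of 32 bases, which was found in 152 member windows and at 21531 places of the genome, counting both strands. Fold was 64.08 in WT and 36.55 in KO at the member nearest to Mmut, 59.97 and 34 at that nearest to Lonrf1, and 50.11 and 22.95 at that nearest to 1700006P03Rik. Their windows were wholly repeat-masked.

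Related member nearest to Mmut, chr17:41046708-41046807: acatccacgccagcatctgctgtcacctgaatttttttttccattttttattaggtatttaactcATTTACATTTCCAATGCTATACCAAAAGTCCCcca
Related member nearest to Lonrf1, chr8:36298683-36298782: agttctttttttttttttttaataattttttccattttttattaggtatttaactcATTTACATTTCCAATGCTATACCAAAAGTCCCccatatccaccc
Related member nearest to 1700006P03Rik, chr1:137338867-137338966: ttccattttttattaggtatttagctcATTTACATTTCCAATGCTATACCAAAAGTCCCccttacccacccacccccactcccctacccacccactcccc

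Sites with an AP-1 match are shown by 300-base windows nearest to 4 genes. Each is the single-copy member of highest WT fold near that gene that holds a match. Capitals mark AP-1 matches (TGANTCA) and TEAD matches (GGAATG or its reverse, CATTCC). The Myc window holds 2 AP-1 matches and 1 TEAD match, the Thbs2 and Klf6 windows 1 of each, and the Runx1 window 1 AP-1 match. Windows chosen in the same way near Cebpb, Ccn2, Cxcl12 and Osr1, not printed, hold 1 AP-1 match each and no TEAD match, so 3 of these 8 windows hold TEAD letters. Fold was 19.72 in WT and 22.53 in KO at the Myc site, 18.48 and 30.18 at the Thbs2 site, 18.07 and 19.55 at the Klf6 site, and 19.72 and 22.1 at the Runx1 site. They lie 338.3, 54.35, 24.08 and 281 kb from their genes.

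Member nearest to Myc, chr15:62328530-62328829: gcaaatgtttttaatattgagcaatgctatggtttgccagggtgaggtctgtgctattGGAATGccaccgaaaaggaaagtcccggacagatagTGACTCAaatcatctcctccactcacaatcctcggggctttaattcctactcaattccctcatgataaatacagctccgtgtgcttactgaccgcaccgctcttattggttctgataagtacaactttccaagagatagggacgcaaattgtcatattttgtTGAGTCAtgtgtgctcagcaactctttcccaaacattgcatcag
Member nearest to Thbs2, chr17:14611003-14611302: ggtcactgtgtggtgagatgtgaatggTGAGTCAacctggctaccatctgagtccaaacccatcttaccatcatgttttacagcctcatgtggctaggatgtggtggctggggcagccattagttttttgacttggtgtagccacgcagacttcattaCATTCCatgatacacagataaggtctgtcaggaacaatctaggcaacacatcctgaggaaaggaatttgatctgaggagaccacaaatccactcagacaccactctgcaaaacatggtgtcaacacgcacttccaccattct
Member nearest to Klf6, chr13:5837250-5837549: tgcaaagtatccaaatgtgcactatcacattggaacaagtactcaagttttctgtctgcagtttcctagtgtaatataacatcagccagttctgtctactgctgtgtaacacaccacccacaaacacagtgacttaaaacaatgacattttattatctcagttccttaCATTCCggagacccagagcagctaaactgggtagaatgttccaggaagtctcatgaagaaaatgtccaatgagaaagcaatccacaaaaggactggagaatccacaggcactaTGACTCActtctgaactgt
Member nearest to Runx1, chr16:93107042-93107341: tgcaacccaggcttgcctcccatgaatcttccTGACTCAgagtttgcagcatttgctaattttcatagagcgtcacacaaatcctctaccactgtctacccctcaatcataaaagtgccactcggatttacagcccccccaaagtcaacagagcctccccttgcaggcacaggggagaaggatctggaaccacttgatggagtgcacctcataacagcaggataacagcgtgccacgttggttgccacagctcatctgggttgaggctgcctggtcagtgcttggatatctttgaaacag

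Members were strong in both lists. Their WT fold ran from 10.3 to 459 with a median of 13.1, and the strongest KO peak over each had a fold from 2.98 to 290 with a median of 14.5. The fold is the authors' own value for a peak within its list. The KO fold was at least 10 at 5039 members (82.9%), and the WT summit lay inside a KO peak at 6071 (99.9%). Before the overlap was asked for, 6103 WT peaks met the other conditions, so 27 strong intergenic WT peaks had no KO peak. A further 440 that met the fold, distance and overlap conditions were 3000 bases or wider and were left out.

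By rank within the list, counted from the strongest as a percentage of its peaks on chromosomes 1 to 19, members had a median of 14.1% in the WT list and 15.2% in the KO list. The rule sets the lowest WT rank, 21%. In the KO list, 1600 members (26.3%) stood in the top 10%, 4154 (68.4%, exact binomial 95% interval 67.2 to 69.5%, counting error only) in the top 20%, and 221 past the top 50%. The Spearman correlation between both ranks over the 6076 members was 0.573, a description of sites that share 2 libraries. The lists differ in length and each comes from 1 sample, so no change between genotypes is read from these ranks.

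**Figure D1:**
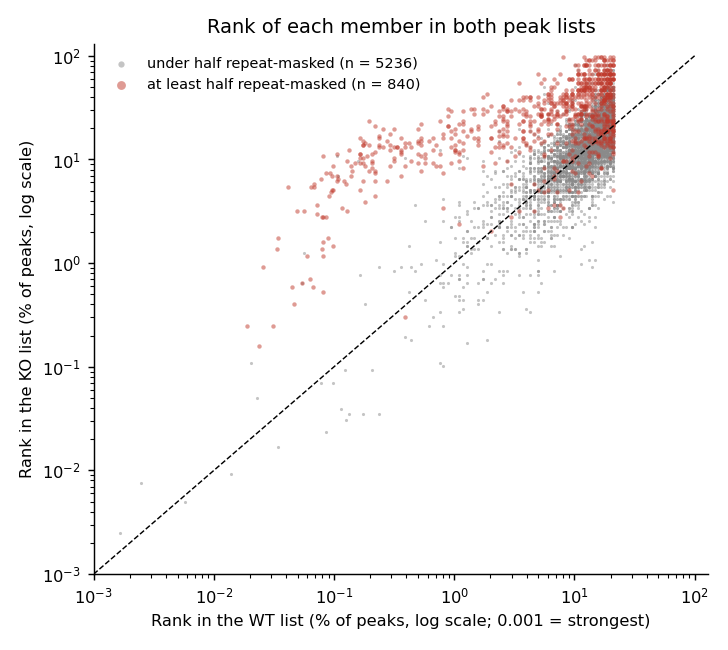
Rank of each of the 6076 members in the WT list (x axis) and in the KO list (y axis), as a percentage of that list's peaks on log axes, with equal ranks on the dashed line. Half-masked members (red, n = 840) mostly form a band above the line, from a WT rank of 0.0189% on, while the others (grey, n = 5236), which include the 4 strongest WT ranks, lie mostly along it.

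Most members of the WT top 1% lay on repeats. Soft-masking in the reference, which marks repeats in lower case, covered at least 50% of the 300-base summit window at 840 members (13.8%), called half-masked here. The same share was 2.49% in the 14767 shared strong peaks whose summit lies inside a gene, 9.55% in the 20818 shared intergenic peaks under the fold threshold, and 27.5% in windows 5 kb to the right of the members. It was 76.5% in the 51 members of the WT top 0.1% and 70.3% in the 155 between 0.1 and 1%. It went down to 8.75% in the 526 members past 20%. By KO rank the share was highest at the weak end: 0 of the 16 members in the top 0.1% were half-masked, against 76.9% of the 221 past the top 50%. The rule asked for a WT fold of at least 10 and set no lower limit on the KO fold. Those 221 are therefore strong in WT and weak in KO by selection, and do not stand for weak KO peaks in general.

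**Figure D2:**
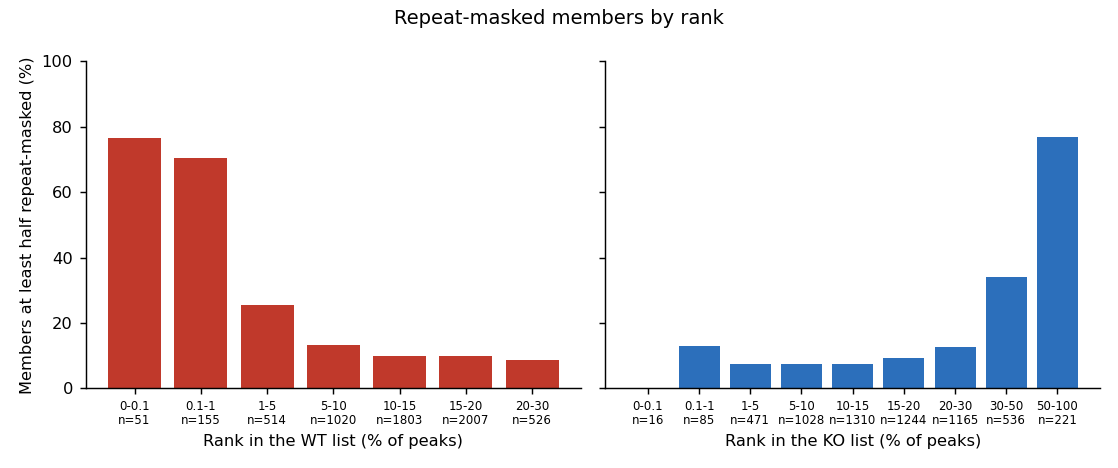
Percentage of half-masked members by their rank in the WT list (left) and in the KO list (right), with the number of members under each bar. The share is highest among the strongest WT ranks (76.5%) and among the weakest KO ranks (76.9%). All members have a WT fold of at least 10, also those of the weakest KO ranks.

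Repeat-masked members stood at different places in the lists. Their median rank was 10.1% in the WT list and 26% in the KO list, and 768 of 840 (91.4%) had a better rank in the WT list. For the 5236 other members the medians were 14.1 and 14.5%, and 3047 (58.2%) ranked better in the WT list. Within the WT top 1%, the 148 half-masked members had a WT fold of 29.6 to 87.9 (median 38.6) and a KO fold of 8.93 to 41.7 (median 18.7), with median ranks of 0.207 and 9.16%. The 58 others of that top 1% had a median fold of 34.7 in WT and 34.6 in KO, with median ranks of 0.402 and 0.613%. The choice of members by their WT fold favours the WT list. With the lists swapped in the rule, 7790 KO peaks qualified, of which 599 (7.69%) were half-masked. Those 599 had a median rank of 16.9% in the KO list and 7.61% in the WT list, against 16.9 and 17.6% for the other 7191. A better rank in the WT list was then found for 398 of the 599 (66.4%) and for 2640 of the 7191 (36.7%), so for peaks that are not half-masked the majority turned with the list the rule started from. Half-masked peaks inside genes (367, medians 13.3% WT and 19.7% KO) and among the weaker intergenic peaks (1988, medians 46.5% WT and 60.0% KO) also ranked lower in the KO list. For the other peaks the medians were 10.7% WT and 10.8% KO inside genes, and 46.5% in both lists among the weaker intergenic peaks. Both sets were drawn from the WT list, and the peaks inside genes were chosen at a WT fold of at least 10 too.

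Most half-masked members belonged to 1 group of related sequences. Aligning all members to each other (at least 90% identity over at least 500 bases, joined in chains) put 675 of them into 28 groups of related peaks and left 5401 without a relative. The largest group held 561 members, 528 of them half-masked, and the next groups held 27 and 12. In the group of 561, WT fold ran from 10.3 to 81.7 (median 17.7) and KO fold from 2.98 to 41.7 (median 8.93). Of these, 559 (99.6%) ranked better in the WT list, with medians of 7.61% in WT and 30.9% in KO. The interquartile ranges were 1.37 to 14.1% in WT and 16.1 to 50.4% in KO. The rule holds every WT rank within 21% but sets no limit on the KO rank, so a gap between these ranges is partly built in. With the lists swapped, 235 qualifying KO peaks overlapped a member of this group, and 233 of them (99.1%) ranked better in the WT list. Each of these overlaps a member, so its WT rank was still held within 21%. This count therefore does not remove the selection on WT fold. The median 32-base word of a group member's window occurred 453 times in the genome, and at 351 members over 100 times. At 4628 of all members (76.2%), in contrast, every word of the window was single-copy. The labels say that only unique alignments were kept and mitochondrial ones removed. How reads from such copies were placed in each library was not tested, and with 1 library per genotype a difference between libraries and one between genotypes cannot be told apart.

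Half-masked members also lay farther from genes and were wider. Their median distance to the nearest gene was 78.8 kb against 30.6 kb for the others, and their median width was 1842 bases against 1337. Of members over 500 kb from a gene, 71 of 114 (62.3%) were half-masked. At 5 to 20 kb it was 203 of 2151 (9.44%). GC content of the window was 44.7% at the median in half-masked members and 49.7% in the others. A match of at least 100 bases to the mitochondrial genome was found at 2 members, over 216 bases at 76.4% identity and over 186 bases at 82.3%.

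The 12 members of highest WT fold show the same mixture. The first pair, nearest to Pdia4 (an endoplasmic reticulum protein disulfide isomerase), lies on chromosome 6 with summits at 47753943 and 47761563, 42.2 and 34.6 kb from the gene. Their WT folds were 459 and 427, ranks 2 and 3 of the list, and their KO folds 290 and 190, ranks 3 and 9. The median word of each occurred 16 times in the genome. A site on chromosome 3 with its summit at 5860619, 109 kb from Gm8797, had a fold of 289 in WT and 250 in KO, ranks 7 and 6. A site on chromosome 15 nearest to Ly6c2 (a Ly6 family surface protein) had 104 and 141. Of the other 8, 5 were wholly repeat-masked. They lie nearest to Zfp763, Zfp516, Vmn2r87, Efhb and Gm43085 and had folds of 71.9 to 87.9 in WT and 30.6 to 41.7 in KO. The twelfth, on chromosome 11 at 109011652 to 109012118, lies 61.1 kb from Axin2, a negative regulator of Wnt signalling. It was single-copy, had 62.3% GC and ranked 42 in WT (fold 70.7) and 20 in KO (fold 59.9).

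At the other end, the 3 members whose KO peak ranked lowest were all in the related group of 561, on chromosomes 7 and 8 nearest to Snrpn, Pde3b and Adam25. Their WT folds were 11.5, 17.3 and 12.3, and each had a KO fold of 2.98, at rank 97.8% of the KO list. At the fold threshold, 526 members tied at the lowest fold of 10.3, for example sites nearest to Sulf1, Pi15 and Il17a. Just outside, 580 peaks tied at 9.86, for example nearest to Gm37111, Pomgnt2 and Abhd5.

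Among the 9 motifs searched, AP-1 had the widest gap in percentage points between members and the DNA beside them. An exact match (TGANTCA, which is its own reverse) stood in the 300-base window of 1743 members (28.7%, exact binomial 95% interval 27.6 to 29.8%, counting error only), against 9.12% of windows 5 kb to the right, 26.7% of weaker shared intergenic peaks and 15.4% of shared strong gene-body peaks. Gene-body peaks over 5 kb from a start site held it at 27.0%. Half-masked members held it at 8.57% and the others at 31.9%. Of the others, 318 (6.07%) held 2 or more.

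AP-1 matches were more frequent beside the summit than at it. In members that are not half-masked, there were 7.28 matches per 100 windows within 50 bases of the summit, 14.4 at 50 to 100 bases, 19.1 at 100 to 150, and 20.6 at 150 to 200. The rate then went down to 7.73 at 250 to 300 bases and 3.09 at 550 to 600, where the windows 5 kb away also had 3.09. Gene-body peaks far from start sites had the same shape, from 5.77 within 50 bases to 18.8 at 150 to 200, and weaker intergenic peaks had 7.73 and 11.8. A 600-base window therefore held an AP-1 match at 3153 members (51.9%), against 1073 (17.7%) of the windows 5 kb to the right. In the Myc window printed above, the AP-1 matches stand on opposite sides of the summit.

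**Figure D3:**
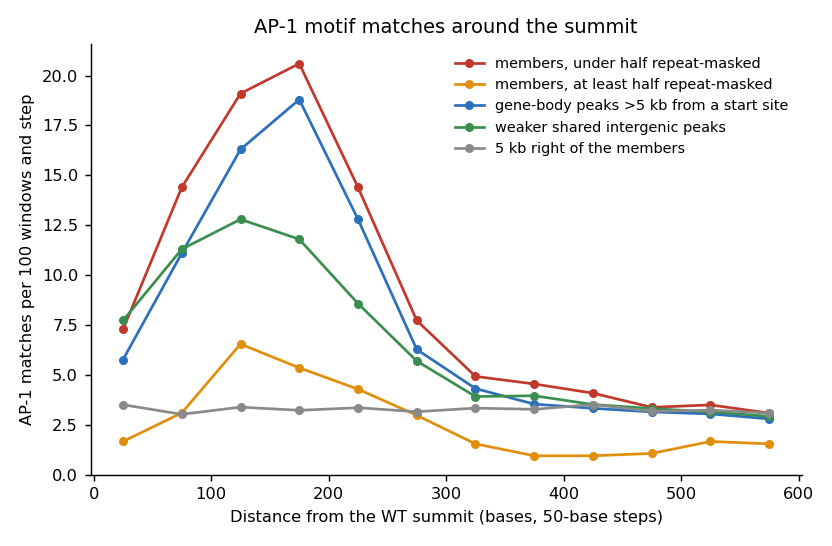
AP-1 matches (TGANTCA) per 100 windows in 50-base steps of distance from the WT summit, both sides pooled, for members split by repeat-masking, for comparison peaks and for windows 5 kb to the right of the members. Members that are not half-masked go from 7.28 at the summit to 20.6 at 150 to 200 bases and meet the shifted windows past 450 bases.

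The other motifs had narrower gaps in percentage points (letters were searched on both strands). Of the windows 5 kb to the right, 27.5% were half-masked, and their median GC was 44.3%, against 49.7% in members that are not half-masked. The gaps were not adjusted for masking or GC. TEAD (GGAATG) was found in 25.7% of members that are not half-masked and 16.5% of windows 5 kb to the right of all members. The E-box CAGCTG was found in 23.2% and 12.0%, and ETS (GGAAGT) in 22.3% and 17.3%. RUNX (TGTGGT) had 24.1% and 21.4%, and C/EBP (TTGCNNAA) 14.3% and 12.1%. The GATA-factor motif, searched as AGATAA, was found in 14.6% of these members and 17.3% of the shifted windows. The motif of CTCF, the insulator and loop-anchor protein, was in 1.03% of these members and 0.263% of the shifted windows, and in 1.51% of the weaker intergenic peaks. The CArG box of SRF, the factor that actin dynamics control through MRTF, was in 1.70% of members that are not half-masked and 1.74% of shifted windows. Like AP-1, TEAD and the E-box were most frequent away from the summit, with 9.21 and 7.94 matches per 100 windows within 50 bases and 11.7 and 10.1 at 150 to 200. A letter match is a description and not a bound site.

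Members were spread over all 19 chromosomes, from 1.75 per Mb on chromosome 14 to 3.15 per Mb on chromosome 17. The median gap between neighbouring summits was 120 kb and the smallest 1.00 kb. Joining neighbours within 10 kb gave 685 groups with 1538 members (25.3%), of which 553 were pairs, 105 were triplets and 27 had 4 or more, and 4538 members stood alone. Among half-masked members 82 of 840 (9.76%) were in a group, and among the others 1456 of 5236 (27.8%). That difference was not tested.

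No group had more than 5 members, and 9 had that many. The 5 with the highest summed WT fold held no half-masked member. The first, on chromosome 12 from 86787287 to 86804588, lies 23.5 to 40.8 kb from Lrrc74a with WT folds of 10.7 to 32 and KO folds of 9.35 to 39.1. The second spans 24.6 kb of chromosome 2, 62.8 to 87.4 kb from Cebpb (a basic leucine zipper transcription factor of inflammation and fat cell formation), with 12.7 to 28.8 in WT and 12.8 to 37.4 in KO. The third lies between Ephb3 and Vps8 on chromosome 16, the fourth 20.3 to 40.4 kb from Prelp (a proteoglycan of connective tissue) on chromosome 1, and the fifth 16.4 to 35.0 kb from Socs3 (an inhibitor of cytokine signalling) on chromosome 11. Across these last 3 groups WT folds were 10.3 to 23.8 and KO folds 6.80 to 28.1.

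Members had 3572 nearest genes, at a median distance of 33.2 kb and at most 1931 kb. In all, 2270 genes had 1 member, and 139 had 5 or more, which together took 863 members (14.2%). The gene intervals are those of the count table. Against the fuller GENCODE M21 annotation, 1061 members (17.5%) lie inside a gene that the table lacks, 705 of them in long intergenic RNAs, and 415 (6.83%) lie within 1 kb of an annotated start. Only 4238 of the 6076 members lie over 5 kb from every gene of that annotation. The median distance to its nearest start site was 15.8 kb.

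Among the genes of the count table, Myc, the growth-promoting transcription factor, had the most members, 20. How many of the 20 lie inside a gene that the table lacks was not counted. All 20 lie downstream of its start site on chromosome 15, from 13.8 to 584 kb, with WT folds of 10.3 to 19.7 and KO folds of 9.78 to 23.0. An AP-1 match was found in 11 of them, 1 was half-masked, and 11 were in groups. Cd83 (an immunoglobulin-family protein of immune cells) followed with 11 members. Reep3 (an endoplasmic reticulum shaping protein) and Rnd3 (which opposes cell contraction) had 10 each. Klf6 (a zinc finger factor), Runx1 (a factor of blood formation), Hes1 (a Notch-responsive repressor), Tomm20, Ywhaz and Gm26897 had 9 each, and are those of highest summed WT fold among the 7 genes with 9. The 8 of 9 Runx1 members upstream of its start lay up to 364 kb away, and 5 of 10 Rnd3 members held an AP-1 match.

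**Figure D4:**
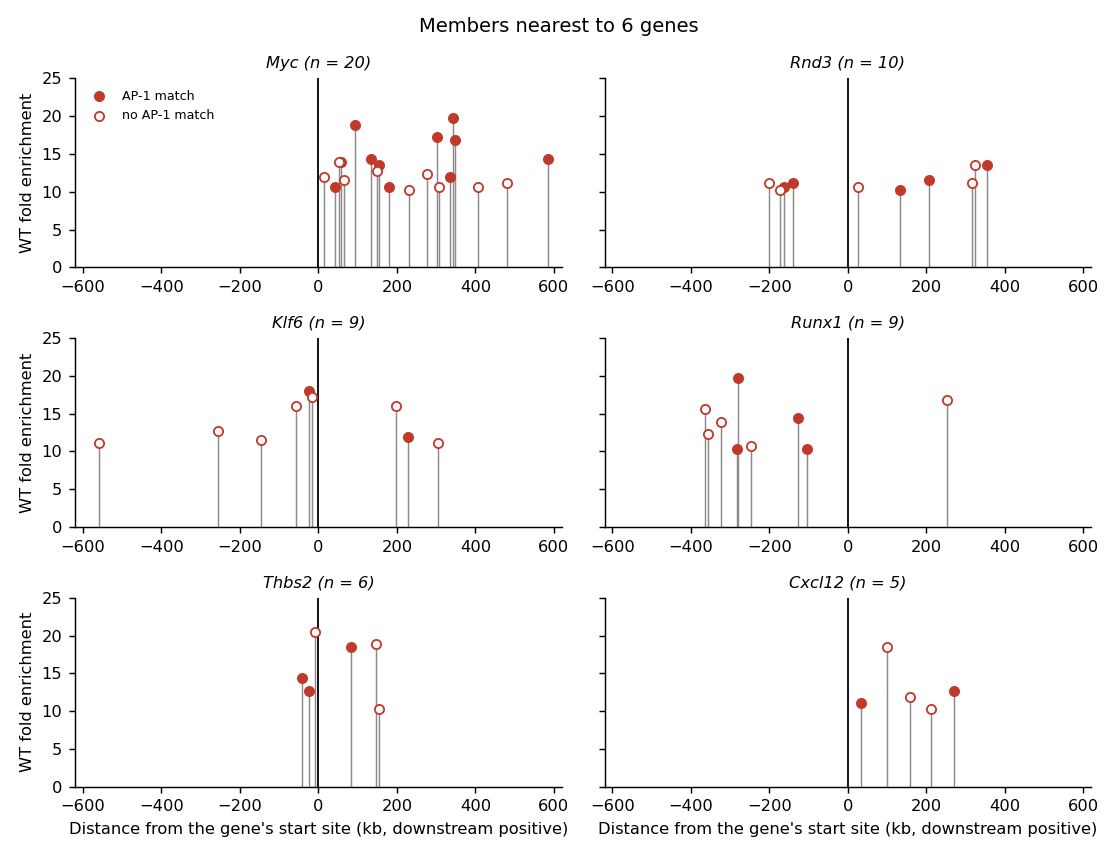
Members nearest to Myc, Rnd3, Klf6, Runx1, Thbs2 and Cxcl12 by distance of the summit from the gene's start site in kb (downstream positive, line at 0) and by WT fold enrichment. Filled circles hold an AP-1 match in the 300-base window. All 20 Myc members and all 5 Cxcl12 members lie downstream.

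The share of nearest genes called between genotypes was slightly above that of all genes. Among the 3572, 2236 (62.6%) had enough counts to be tested between genotypes, against 47.4% of the table. Of these, 880 (39.4%) passed the test (edgeR quasi-likelihood, adjusted p under 0.05), where the background is 35.7% of the 12192 genes tested. In KO, 425 were higher (19%, background 18.3%) and 455 lower (20.3%, background 17.4%). The background includes the nearest genes themselves. Of the 9542 tested autosomal genes nearest to no member, 34.8% were called, 18.4% higher and 16.4% lower. The difference between these shares was not tested. At least 2-fold differences were found in 63 and 58 of the 2236, and in 364 and 246 of the 12192. The median log2 fold change (KO over WT) was -0.003 and over all tested genes 0.001. The level per exon length in WT had a median of 4.35 CPM per kb against 4.30 for all tested genes. The replicates differ by little (a biological coefficient of variation, BCV, of 0.0311), and with an assumed BCV of 0.2 the test calls 85 (3.80%) of the nearest genes, with a background of 3.26%. DESeq2 called 471 of them (21.1%) and 2058 of all tested genes (16.9%).

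By distance and kind of member the counts were as follows, beside 18.3% higher and 17.4% lower over all tested genes. Genes with a member within 20 kb were higher in 271 (22.4%) and lower in 238 (19.7%) of 1211 tested. Genes whose members all lie beyond 100 kb were higher in 19 (9.05%) and lower in 53 (25.2%) of 210 tested, with a median log2 fold change of -0.08. Genes near half-masked members only were higher in 25 (13.4%) and lower in 45 (24.2%) of 186 tested, with a median of -0.04. Genes with a member that is not half-masked and holds an AP-1 match were called in 364 of 925 (39.4%). Genes with members that are not half-masked, none of them with a match, were called in 446 of 1125 (39.6%), beside 35.7% over all tested genes. Genes near grouped members were higher in 112 (21.6%) and lower in 97 (18.7%) of 518. No difference between these sets was tested.

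Acta2, the targeted gene, is not the nearest gene of any member. It had 256 and 265 CPM (counts scaled to the library's size) in KO and 2186 and 2200 in WT. The log2 fold change was -3.07 (SE 0.030, adjusted p = 1.59e-32), and the genotypes did not overlap (edgeR quasi-likelihood test, Benjamini-Hochberg adjusted, as for every adjusted p here). The RNA libraries held 8429166 to 11370115 estimated counts. The marker counts that follow stand beside 18.3% higher and 17.4% lower in KO over all tested genes. Defining markers of cardiac fibroblasts were present and summed to 3140 and 3160 CPM in KO and 4330 and 4270 in WT. Of the 8, 6 were lower and 1 higher in KO. Highly expressed genes weigh most in such a sum, with Col1a1 alone at 1156 and 1136 CPM in KO and 1284 and 1265 in WT. Macrophage markers summed to 155 and 157 in KO and 90.1 and 85.6 in WT (4 of 5 tested higher, Fcgr1 at 0 in every sample), and endothelial markers to 127 and 135 in KO and 97.0 and 89.9 in WT (7 of 8 higher). Cardiomyocyte markers summed to 4.75 to 8.18 CPM, with Nppa at 0. Pericyte and smooth muscle markers summed to 44.3 and 45.5 in KO and 30.2 and 27 in WT (2 higher and 2 lower of 4 tested), and mesothelial markers to 261 and 252 in KO and 258 and 254 in WT (1 higher and 4 lower of 5). What part these cells have in the differences below was not tested, and in bulk RNA fewer cells of a type and less RNA per cell cannot be told apart.

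Of the 10 named genes with the most members, 8 could be tested and 3 passed the test, near the 35.7% of all tested genes. Myc had 158 and 151 CPM in KO and 155 and 148 in WT, so the genotypes overlapped, and its log2 fold change was 0.03 (SE 0.049, adjusted p = 0.702). Hes1 (130 and 123 in KO, 129 and 127 in WT), Ywhaz (825 and 841, 838 and 840), Reep3 (81.8 and 88.5, 83.0 and 88.3) and Rnd3 (150 and 155, 157 and 164) did not pass the test either. Klf6 had 551 and 522 CPM in KO against 484 and 471 in WT, a log2 fold change of 0.17 (adjusted p = 0.000533). Tomm20, a mitochondrial import receptor, had 528 and 517 against 500 and 475 (log2 fold change 0.10, adjusted p = 0.0263). Runx1 had 43.4 and 45.9 against 51.8 and 53.5, a log2 fold change of -0.24 (adjusted p = 0.0153). Without the first KO library or the second WT library neither of the last 2 genes was called, with adjusted p = 0.18 and 0.313 for Tomm20 and 0.133 and 0.078 for Runx1. DESeq2 called neither (adjusted p = 0.143 and 0.167). Cd83 was too low to be tested, at 0.221 to 0.730 CPM, and Gm26897 was at 0 counts in every sample.

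Among the genes beside the largest groups, Prelp was lower in KO, with 17.1 and 15.8 CPM against 39.9 and 36.8 in WT. Its log2 fold change was -1.22 (SE 0.11, adjusted p = 4.00e-10). Cebpb was higher, with 177 and 179 CPM in KO and 141 and 128 in WT. Its log2 fold change was 0.40 (SE 0.051, adjusted p = 3.58e-07). The genotypes of both genes stood apart. Socs3, Ephb3 and Vps8 did not pass the test, with 7.63 to 11.9, 2.10 to 4.82 and 24.3 to 32.9 CPM over all samples, and Lrrc74a was at 0.

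**Figure D5:**
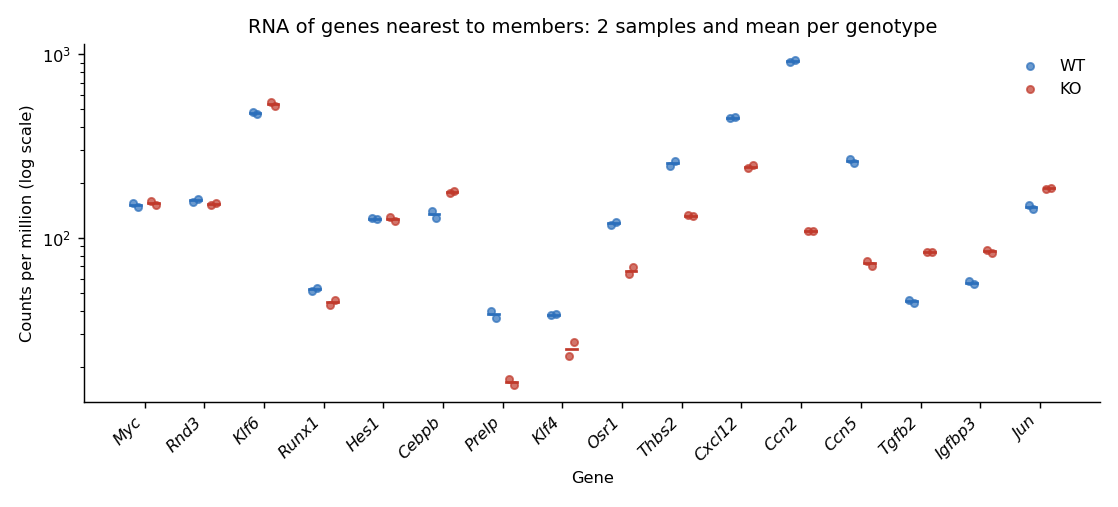
CPM on a log axis for 16 genes nearest to members, with 2 samples per genotype as points and their mean as a line (blue WT, red KO). Ccn2 goes from 912 and 927 in WT to 109 and 110 in KO, while the samples of Myc overlap at 148 to 158.

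Transcription factors of mesenchyme near members went both ways. Of 26 listed factors of cardiac mesenchyme, 14 were nearest genes, with 24 members, and 4 were higher and 4 lower in KO among 12 tested. The whole list had 6 higher and 6 lower of 23 tested, beside 18.3% higher and 17.4% lower over all tested genes. Osr1, a factor of fibroblast progenitors with 4 members 108 to 258 kb away, was lower, with 63.7 and 69.2 CPM in KO and 118 and 123 in WT (log2 fold change -0.86, SE 0.059, adjusted p = 3.21e-12). Tcf21, the lineage factor of cardiac fibroblasts, was lower, with 5.61 and 6.84 CPM against 10.9 and 11.1. Its 2 members had WT folds of 10.7 and 10.3 and KO folds of 4.68 and 7.23, and the first of them was half-masked. Twist2 was lower too (27.7 and 26.6 against 40.5 and 39.3 CPM), though 46.5% of its exon words also occur in another gene. Gata6, with 5 members, had 17.4 and 16.1 CPM in KO and 14.9 and 15.8 in WT (adjusted p = 0.496).

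Of 30 other mesenchymal factors, 18 were nearest genes, with 69 members, and of these, all tested, 3 were higher and 9 lower in KO. The whole list had 5 higher and 13 lower of 29 tested, against the same shares over all tested genes. Klf4, a zinc finger factor with 8 members, 7 of them upstream up to 582 kb, was lower, with 22.7 and 27.1 CPM in KO and 38.3 and 38.5 in WT (log2 fold change -0.63, adjusted p = 1.25e-05). All samples of one genotype lay on one side of the other.

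Among 12 genes of AP-1 and related leucine zipper factors, 7 were nearest to 14 members, and of the 6 tested 2 were higher and 0 lower in KO. Over the whole list 6 were higher and 0 lower of 11 tested, beside 18.3% higher and 17.4% lower over all tested genes. Jun, with 3 members, had 186 and 186 CPM in KO and 151 and 144 in WT (log2 fold change 0.34, SE 0.048, adjusted p = 2.29e-06). Atf3, a related stress factor, had 35.1 and 30.2 against 26.6 and 25.2 (log2 fold change 0.33, adjusted p = 0.0113). That call was lost without the first KO library (adjusted p = 0.214) or the second WT library (adjusted p = 0.0594), and with DESeq2 (adjusted p = 0.163). Fos, with 4 members, overlapped between genotypes at 59.9 and 65.3 against 68.6 and 51.0 CPM, and Fosb had 4.56 and 2.74 against 2.52 and 1.77 (adjusted p = 0.0727). Without the first WT library, Fos was called at a log2 fold change of 0.29 (adjusted p = 0.00589) and Fosb at 1.04 (adjusted p = 0.0467).

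Of 30 listed matrix genes, 17 were nearest genes, with 43 members, and of the 16 tested 2 were higher and 11 lower in KO. The whole list had 3 of 28 tested genes higher and 18 lower, with a median log2 fold change of -0.25, beside 18.3% higher and 17.4% lower over all tested genes. Thbs2 (thrombospondin 2, a matricellular protein) had 6 members, 3 of them with an AP-1 match. It had 133 and 132 CPM in KO against 246 and 263 in WT. The log2 fold change was -0.95 (SE 0.048, adjusted p = 3.25e-15). Col1a1, the main fibrillar collagen chain, was lower by less, with 1156 and 1136 against 1284 and 1265 CPM (log2 fold change -0.15, adjusted p = 4.50e-05). Tnc (tenascin C) was higher, with 230 and 234 against 177 and 181 CPM (log2 fold change 0.38, adjusted p = 1.57e-07). Col5a1, with 5 members, overlapped, at 47.3 and 48.1 against 49.8 and 40.1 CPM, and was called only without the first WT library, at a log2 fold change of 0.25 (adjusted p = 0.0478).

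Of 20 listed contractile genes, 6 were nearest genes, with 9 members, and all 6 were higher in KO. Over all 20, each tested, 16 were higher and 2 lower, beside 18.3% higher and 17.4% lower over all tested genes. Actb (cytoplasmic β-actin) had 7815 and 7625 CPM in KO and 6538 and 6328 in WT (log2 fold change 0.26, adjusted p = 3.55e-12), with 2 members 14.3 and 22.7 kb upstream. Smtn (smoothelin) had 44.7 and 37.8 against 30.0 and 28.9, Vcl (vinculin) 63.5 and 66.2 against 43.8 and 57.6, and Myh9 (non-muscle myosin heavy chain) 80.5 and 82.0 against 74.6 and 66.6 CPM. The call of Vcl was lost without the first WT library (adjusted p = 0.132), and that of Myh9 without the second KO library (adjusted p = 0.0734) or the second WT library (adjusted p = 0.256), and with DESeq2 (adjusted p = 0.188). Of the words of 32 bases in their exons, 22.1% of Actb and 27.4% of Vcl also occur in another annotated gene, so their counts are less certain.

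Targets and parts of the TGF-β and YAP pathways went both ways. Of 20 listed, 13 were nearest genes, with 27 members, and of these, all tested, 4 were higher and 3 lower in KO. The whole list had 7 higher and 3 lower, beside 18.3% higher and 17.4% lower over all tested genes. Ccn2 (connective tissue growth factor, a target of both pathways) was the lowest of them, with 109 and 110 CPM in KO against 912 and 927 in WT. Its log2 fold change was -3.07 (SE 0.038, adjusted p = 5.96e-30). All 4 of its members lie upstream, from 5.73 to 119 kb, with WT folds of 10.3 to 15.6 and KO folds of 10.6 to 21.7, and 20.8% of its exon words also occur in another gene. Tgfb2, a TGF-β ligand with 3 members, was higher, with 83.9 and 83.6 against 46.0 and 44.6 CPM (log2 fold change 0.89, SE 0.068, adjusted p = 3.08e-11). Smad3, the signal transducer (17.5 and 18.6 against 18.2 and 18.9 CPM), and Tgfbr2, the receptor (29.2 and 33.7 against 34.3 and 31.5), overlapped between genotypes, with 4 members each.

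Of 22 growth factors and receptors, 11 were nearest genes, with 26 members, and of these, all tested, 3 were higher and 4 lower in KO. The whole list had 3 higher and 9 lower of 22 tested, beside 18.3% higher and 17.4% lower over all tested genes. Cxcl12, a chemokine that fibroblasts secrete, had 5 members 34.5 to 269 kb downstream of its start. It was lower, with 241 and 248 CPM in KO against 448 and 456 in WT (log2 fold change -0.89, SE 0.039, adjusted p = 1.20e-16). By the rule its members are in both lists, with WT folds of 10.3 to 18.5 and KO folds of 10.2 to 20.4. Igfbp3 (an IGF-binding protein) was higher, with 86.1 and 83.3 against 58.0 and 56.3 CPM (log2 fold change 0.57, adjusted p = 5.78e-08). Gdf6, with 6 members, had 150 and 141 against 129 and 129 (log2 fold change 0.17, adjusted p = 0.0108), a call lost without the first KO library (adjusted p = 0.195) and with DESeq2 (adjusted p = 0.137). Fgfr1 overlapped at 97.2 and 101 against 98.8 and 91.2 CPM.

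Among called genes whose mean log2 CPM reached 2 with no overlap between genotypes, the 8 highest in KO were Fam220a, Syt13 (a synaptotagmin), Sox11 (a developmental transcription factor), Ccl6 (a chemokine), Prss35 (a serine protease-like protein), Ntn4 (a netrin of basement membranes), Galnt18 and Tnfsf15 (a TNF-family cytokine). Their log2 fold changes ran from 1.56 (Tnfsf15, SE 0.21) to 2.63 (Fam220a, SE 0.13), with 1 to 4 members each. Ccl6 had 17.6 and 18.7 CPM in KO against 3.96 and 3.87 in WT, and Galnt18 48.0 and 43.7 against 14.5 and 15.5. Of the exon words of Fam220a, 99.7% also occur in another annotated gene, so its value is uncertain.

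The 8 lowest were Tagap, Ccn2, Serpina3g, Mmp8 (a neutrophil-type collagenase), C1qtnf3, Npy1r (a neuropeptide Y receptor), Ccn5 (a relative of Ccn2 that lacks its C-terminal domain) and Fgf10 (a mesenchymal fibroblast growth factor). Their log2 fold changes ran from -5.53 (Tagap, SE 0.35) to -1.82 (Fgf10, SE 0.22). Tagap was near the floor in KO, with 0.0876 and 0.456 CPM (1.42 and 4.69 estimated counts) against 11.9 and 13.9 CPM in WT. Its log2 fold change was -4.79 without the first KO library and -7.01 without the second, so its size is uncertain. Ccn5 had 75.4 and 70.7 CPM in KO against 270 and 256 in WT, with 3 members 6.13 to 22.2 kb upstream whose WT folds were 10.3 to 23.0 and KO folds 10.2 to 18.3. Exon words of Tagap (68.1%) and Serpina3g (29.1%) also occur in other genes. Every gene of both sets of 8 had its peaks in both lists because the rule asked for it. KO folds were 8.93 to 30.6 where RNA rose and 10.2 to 24.2 where it fell. No link between peak fold and RNA was tested. Half-masked members were 1 near Sox11 (fold 20.1 in WT and 9.78 in KO), 1 near Ccn2 (15.6 and 14.5) and the only member near Fgf10 (20.1 and 10.2).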

How the data were processed

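RNA-seq of 2 KO and 2 WT samples and ATAC-seq of 1 sample per genotype were used. Per the labels' protocols and the submitters' processing notes, reads were trimmed with Trim Galore 0.6, and RNA reads were aligned to mm10 with STAR 2.5.3a and ATAC reads with Bowtie2 2.3. Only unique ATAC alignments were kept, without duplicates and mitochondrial ones, and MACS2 called peaks in each sample without a local background. For the deposited estimated counts, the counting program and annotation were not given in the sources used here. They held 8429166 to 11370115 per sample, with 10.8 to 12.2% of values not whole, where raw counts had been assumed. The peak files give the authors' fold ratio over background, used here, their −log10 p and q values, used for 1 stricter threshold, and their caller's integer score, not used.

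Estimated counts were rounded and tested with edgeR 4.0.16 (R 4.3.3; TMM, filterByExpr with a minimum count of 10, quasi-likelihood test, Benjamini-Hochberg adjusted p under 0.05 over 12192 genes). Tested on simulated data with 200 genes changed 2-fold and the same BCV for every gene, this recovered 187 with 2 false calls among 11898 genes. In the data 4352 genes were called, most of them at less than 2-fold. The simulation therefore does not measure the false calls among them. Alternatives were DESeq2 1.42.0 and its size factors, no filter, a replicate block, an assumed BCV of 0.2, each replicate left out, and other peak thresholds. Same-numbered samples of both genotypes had a correlation of deviations of 0.034 over 10094 genes.

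Sequence came from the RefSeq GRCm38.p6 genome, with GENCODE M21 as annotation. Related peaks were found with BLAST+ 2.17.0+. Windows were 300 bases around the summit and words 32 bases. Peaks have no replicate, so they were not tested, and intervals cover counting error only. The genes and peaks named follow a rule: the 12 members of highest WT fold, the 5 largest groups, both edges of the fold threshold, the 3 lowest KO ranks, their nearest genes, the 10 genes with most members (ties by summed WT fold), the 8 highest and 8 lowest called nearest genes whose mean log2 CPM reached 2 and whose genotypes do not overlap, and up to 4 nearest genes per gene list. Members, lists and tests were chosen with earlier results of these data known.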

Additional observations from a re-analysis of the deposited data

How the results depend on the processing

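The fold threshold set the number of members: 9721 at a fold of at least 8 and 2061 at 15. The other rules for distance, overlap, threshold and annotation gave 4248 to 6074. Members in groups numbered 752 within 5 kb and 3345 within 50 kb. Chosen after seeing the data were 3 alternatives. Without half-masked members, 72.9% had a KO peak in the top 20% and 31.9% an AP-1 match. With the lists swapped, 60.5% of 7790 KO peaks had a WT peak in the top 20%. With 600-base windows, 51.9% held an AP-1 match. Of nearest genes, 400 were called at a fold of at least 15, 471 with DESeq2 and 85 at the assumed BCV. Over all genes DESeq2 called 2058 and the assumed BCV 398. Leaving out 1 library called 3392 to 3674 of all genes and 698 to 776 nearest genes, where the lone sample is assumed to vary like the other genotype.

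The fit with the replicate number as a block called 4408 genes and 888 nearest genes, and it changed no call of a named gene. The labels give only a shared number, and the correlation of 0.034 does not pair the samples. Of the 40 named genes called, 33 were called in every setting but the assumed BCV, and 19 were called there.

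Log2 fold changes that turned when 1 library was left out ranged over the 4 fits as follows: Gm8797 -0.39 to 0.29, Zfp516 -0.25 to 0.01, Ephb3 -0.59 to 0.61, Vps8 -0.12 to 0.28, Myc -0.01 to 0.06, Reep3 -0.07 to 0.04, Hes1 -0.05 to 0.03, Fos -0.14 to 0.29, Col5a1 -0.06 to 0.25, Tgfbr2 -0.17 to 0.03. None of these genes was called with all 4 libraries, and Fos and Col5a1 were called without the first WT library. Fosb, higher in every fit, was called at 1.09 without the second KO library and 1.04 without the first WT library. The cause was not tested. With 1 ATAC sample per genotype, no difference in peaks could be tested.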
